A study of Drosophila melanogaster with 9 samples.

Results

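The genes described here are predicted targets of the 5p arm of the microRNA miR-313 that are not also predicted targets of its 3p arm, followed in testes of Drosophila melanogaster. The deposited expression table carries a TargetScan mark for each arm, and a gene was taken when it was marked Yes for miR-313-5p and No for miR-313-3p. That rule, which uses no expression value, gave 198 of the 7539 genes of the table. They were set against the 6855 genes marked No for both arms, called unmarked below.

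The mutant testes came from flies called Dm310s mutant or Dm310s KO in the labels, which lack the miR-310 cluster, a run of neighbouring microRNA genes from miR-310 to miR-313. Control testes came from flies labelled Control. Both lines were made from the stock EP(2)2587, so the stock's background is common to mutant and control. All flies were adults of 3 to 5 days, cultured at 25 °C, and each group had 2 RNA-seq libraries. Whether the 2 libraries of a genotype stand for separate sets of flies is not stated in the labels, and the p-values below measure library spread that may be technical. The loss of the cluster was not checked in these RNA-seq values.

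A microRNA guides an Argonaute protein to short sites, usually in the 3′ untranslated region of a messenger RNA, that pair with the microRNA's seed near its 5′ end. Bound messengers are repressed in translation and often destabilised, and the effect on any 1 messenger is usually modest. Each hairpin can yield a mature microRNA from its 5′ arm and another from its 3′ arm, and since their seeds differ, the arms have different predicted targets. TargetScan predictions rest on sequence and do not show that a site is used in a given tissue.

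The 5p arm was the main product of the miR-313 hairpin in the small RNA libraries of this series, which came from the strains Canton-S and Z56 with 1 library per strain and tissue. miR-313-5p had 4027 reads in Z56 testes, or 2889 RPM (reads scaled to a common total of microRNA reads; exact Clopper-Pearson 95% interval 2801 to 2980). In Canton-S testes it had 1875 reads, or 1331 RPM (1272 to 1393). Both testis libraries thus held the arm well above the carcass, where 95 reads gave 7.63 RPM (6.18 to 9.33). In ovaries it stood at 1538 RPM in Z56 (1447 to 1634) and at 1296 RPM in Canton-S (1188 to 1412). Of the reads of the miR-313 hairpin, the 5p arm made up 99.07% in Z56 testes (98.72 to 99.34) and 99.05% in Canton-S testes (98.5 to 99.44). Among the reads of all 8 arms of the cluster, miR-313-5p was a smaller part, 5.22% in Z56 testes and 4.07% in Canton-S testes. The intervals reflect counting error alone, and PCR duplicates make reads less than independent.

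All 198 targets had a protein-coding match in the RefSeq gene table. They were expressed at low to moderate levels in testes. Levels are given as log2 of RPKM, read density scaled by gene length and library size, so they are per length. The median target stood at 2.86 and 2.91 in the mutant libraries and at 2.85 and 2.82 in the control libraries. Genes marked for neither arm had higher medians, 3.26 and 3.25 in mutant and 3.26 and 3.27 in control libraries. Put back to a linear scale, the median target lay at 7.14 RPKM and the median unmarked gene at 9.50 RPKM, or 10.2 RPKM when only protein-coding unmarked genes were taken. The interquartile range of the targets ran from 3.76 to 20.1 RPKM. Among the targets 10 (5.05%) had a mean level under 1.3, close to the floor of 1 that the table's values do not go below, against 3.18% of unmarked genes. The upper end was thin as well, with 12 targets (6.06%) above a level of 6 against 10.2% of unmarked genes. Since genes below the floor in any library are not in the table, a target that was silent in one group could not be seen.

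The library correlations of the targets were high. Across the 198 genes, Pearson's r was 0.996 between the mutant libraries, 0.997 between the control libraries and 0.995 for each pair of a mutant and a control library. Over all genes of the table the corresponding values were 0.993, 0.994 and 0.983 to 0.988. Such correlations run across genes, which share libraries and are no replicates, and they only describe the data. RNA-seq depth is unknown because the table holds no counts. Marker lists describe which tissues the libraries held. Genes called in them (limma adjusted p under 0.05) are to be read beside 1.50% called over all genes. Positive differences, which are higher in the mutant, are to be read beside 51.3% of all genes. A list of 41 testis germ line symbols, some of them synonyms of the same gene, matched 36 genes of the table. They summed to 9698 and 9762 RPKM in mutant and 9249 and 9109 RPKM in control libraries, with 22 positive differences and 0 genes called. Accessory gland genes (29 in the table, from 33 symbols that include synonyms) summed to 11290 and 12500 RPKM in mutant and 12600 and 12550 RPKM in control libraries. Of these, 16 had a positive difference and 1 was called, lower in the mutant. Digestive enzyme genes (8 of 33) summed to 152 and 245 RPKM in mutant and 66.6 and 67.9 RPKM in control libraries, with 7 positive differences and 2 genes called by limma, both higher in the mutant. The 1 fat body gene of 12 in the table, Adh, was also called higher, at 18.7 and 20.9 RPKM in mutant and 11.3 and 10.3 RPKM in control libraries. Ejaculatory duct and bulb genes (5 of 7) summed to 458 and 577 RPKM in mutant and 720.5 and 362 RPKM in control libraries. The controls lay on either side of the mutants, with 2 positive differences and 0 genes called. In the remaining 4 lists, of stem cells and spermatogonia, somatic cyst and hub, muscle and hemocytes, 0 genes were called and the summed levels were 3.88 to 160 RPKM in mutant and 4.02 to 157 RPKM in control libraries. None of the 198 targets was on any of the 9 marker lists, and the part of other tissues in the targets' values was not tested. In bulk testes, fewer cells of a type and less RNA per cell cannot be told apart.

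No single target passed the test between mutant and control testes. In limma, fitted over all 7539 genes, 0 of the 198 targets had a Benjamini-Hochberg adjusted p under 0.05, where 1.50% of all genes did (113 genes, 41 higher and 72 lower in the mutant). The smallest adjusted p among targets was 0.083. At an unadjusted p under 0.05 stood 16 targets, or 8.08%, against 17.7% of all genes. Of these 16 targets 11 had a positive difference, where 617 of the 1331 such genes over the whole table did. Fewer targets stood under that p with any 1 library left out, most of all without a control library. Differences are given throughout as mutant minus control on the log2(RPKM) scale, so a positive one means a higher level in the mutant.

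The differences of the targets were also smaller at both extremes than those of unmarked genes. They ran from -0.36 to 0.47, so no target reached a difference of 0.5 in size, a size that 4.42% of unmarked genes and 3.21% of protein-coding unmarked genes passed. Their SD was 0.13 against 0.26 for unmarked genes and 0.23 for protein-coding ones. The tails were unequal. Differences under -0.2 were found for 7 targets, or 3.54%, against 13.5% of unmarked genes and 10.9% of protein-coding unmarked genes. On the other side, 15 targets, or 7.58%, had a difference over 0.2, against 10.5% and 9.91%. Among targets of the 3p arm only, described below, 5.64% lay under -0.2 and 13.5% over 0.2, with an SD of 0.23. Among targets of both arms 6.98% lay under -0.2 and 9.30% over 0.2, with an SD of 0.19. The thin lower tail was thus not particular to the 5p targets. The 5p targets also varied less than unmarked genes between libraries of one genotype. Their median absolute difference was 0.081 between the mutant libraries and 0.067 between the control libraries, against 0.10 and 0.087 for unmarked genes. For protein-coding unmarked genes the values were 0.096 and 0.083. The other target sets also lay below unmarked genes, at 0.092 and 0.077 for 3p only targets and 0.069 and 0.055 for targets of both arms. The narrower spread was thus also seen within a genotype, and the difference in spread between the sets was not tested. Between genotypes the median absolute difference was 0.090 for 5p targets, 0.104 for unmarked genes and 0.098 for protein-coding unmarked genes. It was 0.090 for 3p only targets and 0.060 for targets of both arms. In each of 3 equal bins of expression it was smaller for 5p targets than for unmarked genes, noncoding ones included. The values were 0.094 against 0.12 in the lowest, 0.095 against 0.11 in the middle and 0.077 against 0.088 in the highest.

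**Figure D1:**
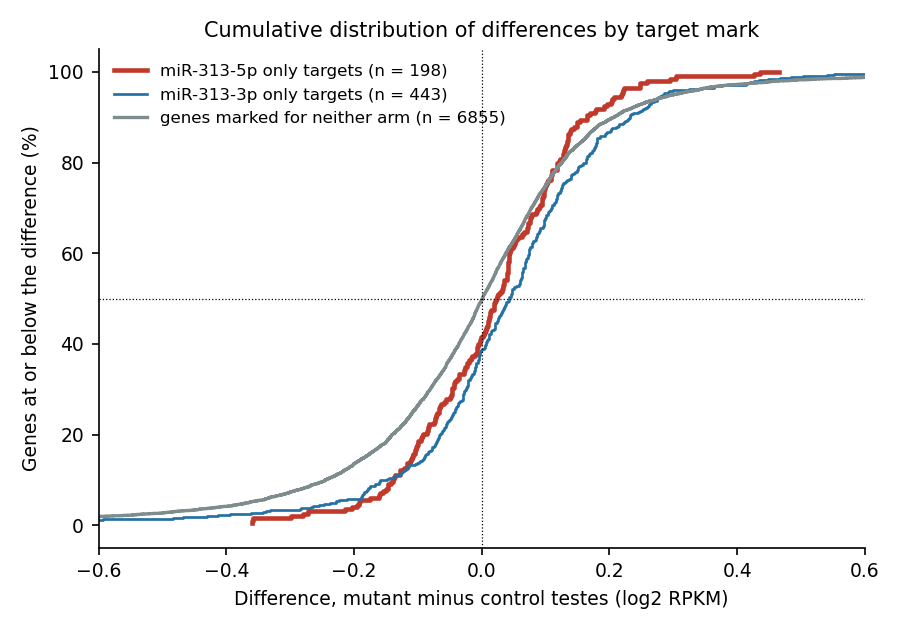
Cumulative percentage of genes (vertical axis) at or below a given difference between mutant and control testes in log2 RPKM (horizontal axis, drawn from -0.6 to 0.6), with 1 line per target mark. The line of the 198 miR-313-5p only targets lies below that of the 6855 unmarked genes to the left of 0 and ends at 0.47.

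The centre of the distribution lay slightly higher in the mutant. The median difference of the targets was 0.025, against 0.0016 for unmarked genes, a shift of 0.023 on the log2 scale or 1.61% in level. A positive difference was found for 117 targets, or 59.1%, against 50.4% of unmarked genes. Noncoding genes carry no target mark and are all among the unmarked; with protein-coding genes alone, a comparison added after the data were seen, the shift was 0.018 and the unmarked percentage 51.98%. For scale, the median standard error of a single target's difference was 0.086. No test was made of the shift or of the percentage, because the set was examined with earlier results of these data known.

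The shift was carried by 1 of the mutant libraries. Mutant replicate 1 lay above control replicate 1 by 0.045 and above control replicate 2 by 0.048, both relative to unmarked genes. For mutant replicate 2 the corresponding values were 0.013 and -0.0040. The difference between the mutant libraries themselves, replicate 2 minus replicate 1, was -0.028, which is larger in size than the shift between genotypes. Between the control libraries it was 0.0050. Without mutant replicate 1 the shift was 0.0085 with 50.0% of targets positive, and without mutant replicate 2 it was 0.043 with 65.7% positive. In mutant replicate 1, 109 targets (55.1%) lay above both control libraries, against 39.7% of unmarked genes. In mutant replicate 2 the number was 72 (36.4%), close to the 37.0% of unmarked genes.

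**Figure D2:**
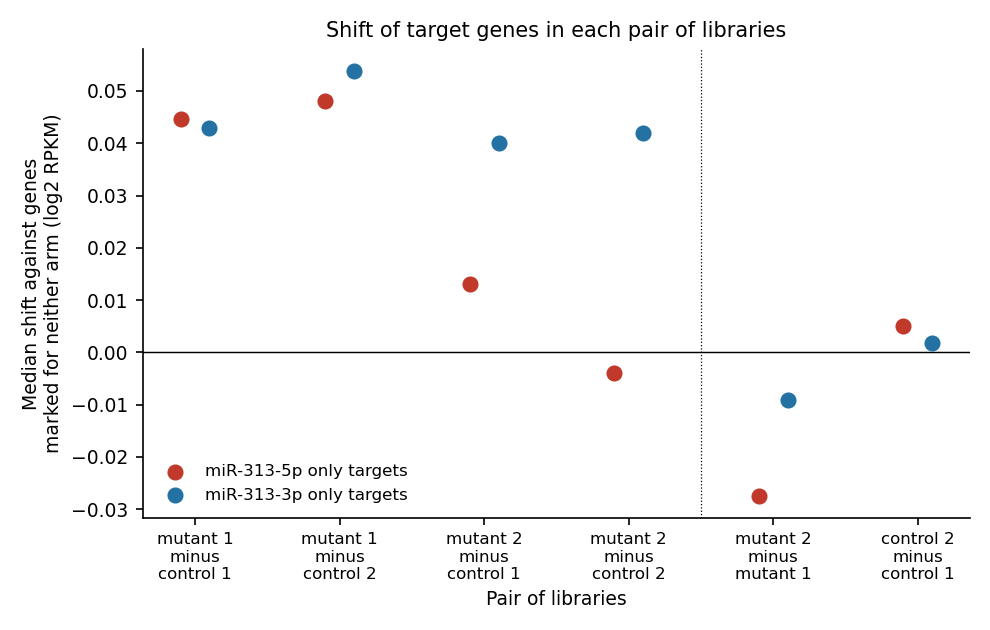
Median difference of target genes minus that of genes marked for neither arm (vertical axis, log2 RPKM) in each pair of libraries (horizontal axis), with the mutant and control pairs left of the dotted line and the pairs within a genotype right of it. The miR-313-5p only targets stand at 0.045 and 0.048 for the mutant replicate 1 pairs, at 0.013 and -0.0040 for mutant replicate 2, and at -0.028 between the mutant libraries.

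For the 443 targets of the 3p arm only, the shift was 0.042 and was positive in all 4 pairs (0.040 to 0.054). The 5p and 3p sets were compared with the same 4 libraries, and the difference between the sets was not tested. The 43 targets of both arms had a shift of 0.0073.

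The shift of the 5p targets was positive in each of the 3 bins of expression. It was 0.023 for the 82 targets in the lowest bin, 0.013 for the 59 in the middle bin and 0.033 for the 57 in the highest bin, where 66.7% of targets had a positive difference against 52.2% of unmarked genes. Across the 198 targets, Spearman's rho between level and difference was 0.10, a description over genes that come from the same 4 libraries.

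**Figure D3:**
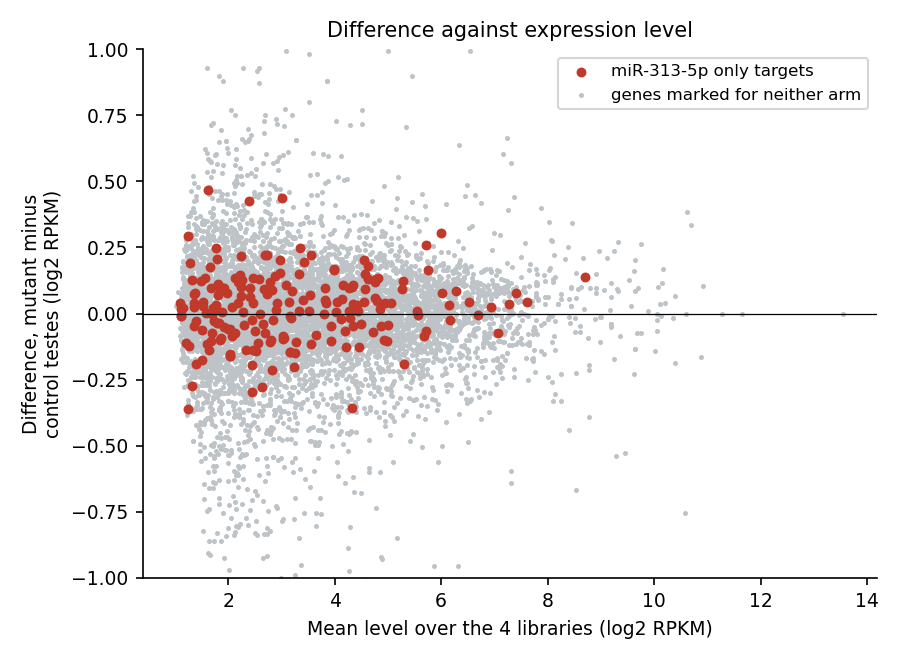
Difference between mutant and control testes (vertical axis, log2 RPKM, drawn from -1 to 1) against the mean level over the 4 libraries (horizontal axis, log2 RPKM), 1 point per gene. The 198 miR-313-5p only targets lie between -0.36 and 0.47, inside the spread of the unmarked genes, of which 57 fall outside the drawn range.

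The mutant and control libraries did not overlap for 94 targets. Both mutant libraries lay above both control libraries in 57 targets, or 28.8%, against 26.2% of all genes, and below them in 37 targets, or 18.7%, against 24.2% of all genes. The count on the higher side was thus near the background and the count on the lower side under it. For the remaining 52.5% of targets the groups overlapped. Both mutant libraries lay below both control libraries in 14.45% of the 3p only targets and 18.6% of the targets of both arms. They lay above both control libraries in 36.6% of the 3p only targets and 30.2% of the targets of both arms.

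Among separated targets, those with the largest positive differences were led by Mct1, a transporter of the monocarboxylate family. Mct1 stood at 1.96 and 1.74 in mutant testes and at 1.29 and 1.48 in control testes, a difference of 0.47 ± 0.12 (SE; limma adjusted p 0.148). CG31388 had 3.18 and 3.30 in mutant against 2.80 and 2.80 in control testes, a difference of 0.44 ± 0.083 (limma adjusted p 0.083). Both genes were thus higher in each mutant library, by more than the spread within either genotype, without passing the adjusted threshold. CG13321 had 2.30 and 2.92 in mutant against 2.24 and 2.13 in control testes. Most of its difference of 0.43 ± 0.21 lay in mutant replicate 2, and mutant replicate 1 was barely above the controls.

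More abundant targets with tight replicates included CG12617, at 6.21 and 6.08 in mutant and 5.87 and 5.81 in control testes (difference 0.31 ± 0.068, limma adjusted p 0.113). CG15896, named mldr in the gene name table, had 5.86 and 5.81 in mutant against 5.60 and 5.56 in control testes (0.26 ± 0.056, limma adjusted p 0.106). In both, the gap between the groups was over 0.2, wider than the distance between replicates. CG33635 lay near the floor of the table, at 1.40 and 1.40 in mutant and 1.12 and 1.09 in control testes, with a difference of 0.29 ± 0.084 and a limma adjusted p of 0.176.

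The rest of the higher side included enzymes, a transporter and an RNA-binding protein. Dnz1, a palmitoyltransferase of the zinc finger DHHC family, had 3.54 and 3.39 in mutant against 3.17 and 3.26 in control testes (difference 0.25 ± 0.089). Cyp317a1, a cytochrome P450, had 3.72 and 3.62 in mutant against 3.48 and 3.42 in control testes (0.22 ± 0.077). Calx, the sodium and calcium exchanger of the plasma membrane, had 1.99 and 1.79 in mutant against 1.65 and 1.71 in control testes (0.21 ± 0.10). Their groups were separated by 0.13, 0.14 and 0.079. The zinc finger RNA-binding protein gene Zn72D, needed for dosage compensation, had 2.40 and 2.29 in mutant against 2.12 and 2.13 in control testes (0.22 ± 0.089). CG6184 differed by 0.22 ± 0.087 and CG7556 by 0.25 ± 0.13, the second with control libraries that lay 0.30 apart. Limma adjusted p for these 6 genes was 0.244 to 0.379.

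The lowest differences among the targets reached -0.36. CG30101, named Vajk4 in the gene name table, stood at 1.02 and 1.12 in mutant and at 1.29 and 1.57 in control testes (difference -0.36 ± 0.13), all near the floor. Non1, which encodes a nucleolar GTPase of ribosome assembly, stood at 3.96 and 4.34 in mutant and at 4.47 and 4.55 in control testes (-0.36 ± 0.13). The mutant libraries of Non1 lay farther apart than the group means did. The glycosyltransferase gene alpha4GT1 had 2.17 and 2.42 in mutant against 2.54 and 2.64 in control testes (-0.30 ± 0.11). CG42240 had 2.48 and 2.53 in mutant against 2.84 and 2.73 in control testes (-0.28 ± 0.088). CG5734, the sorting nexin named Snx17 in the gene name table, had 1.20 and 1.16 in mutant against 1.42 and 1.49 in control testes (-0.27 ± 0.087), with tight replicates in both genotypes. Limma adjusted p was 0.210 to 0.270 for these 5 genes.

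Smaller separated differences on the lower side came from genes of several kinds. Sod3, an extracellular superoxide dismutase, stood at 2.75 and 2.69 in mutant and at 3.04 and 2.83 in control testes (-0.21 ± 0.10). The seryl-tRNA synthetase gene Aats-ser, which the gene name table lists as the mitochondrial form SerRS-m, had 3.17 and 3.09 in mutant against 3.28 and 3.38 in control testes (-0.20 ± 0.082). CG10082, listed as the inositol hexakisphosphate kinase Ip6k, differed by -0.19 ± 0.091 and CG16964 by -0.19 ± 0.093. For CG16964 mutant replicate 2 at 5.08 lay apart from mutant replicate 1 at 5.33 and the controls at 5.41 and 5.38. The receptor gene Toll-7 differed by -0.17 ± 0.092, the zinc finger gene seq by -0.16 ± 0.083 and Tpc1, the mitochondrial thiamine pyrophosphate carrier, by -0.15 ± 0.11. In Tpc1 the groups were only 0.015 apart, with mutant replicate 1 at 2.09 beside controls at 2.11 and 2.14. Limma adjusted p ran from 0.288 to 0.522 over these 7 genes.

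**Figure D4:**
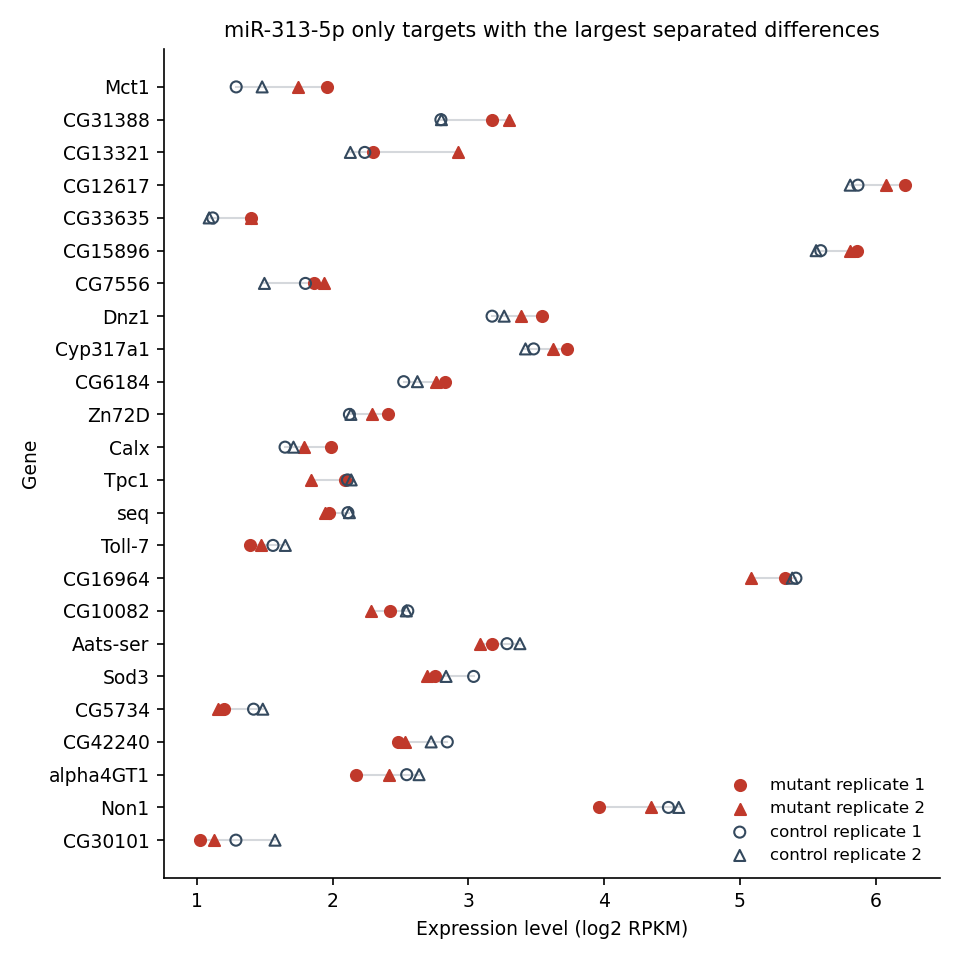
Expression level (horizontal axis, log2 RPKM) of the 24 miR-313-5p only targets with the largest differences among those whose groups did not overlap, 1 row per gene, with filled symbols for the 2 mutant libraries and open symbols for the 2 control libraries. The upper 12 genes, from Mct1 at 0.47 to Calx at 0.21, were higher in mutant testes and the lower 12, from Tpc1 at -0.15 to CG30101 at -0.36, were lower.

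The most abundant targets differed little. CG9130, the highest, stood at 8.80 and 8.75 in mutant and at 8.59 and 8.68 in control testes, a difference of 0.14 ± 0.060 (limma adjusted p 0.311). Its 4 values are identical to those of CG9133, so the pair cannot be told apart. CG14995 had 7.72 and 7.55 in mutant against 7.53 and 7.66 in control testes, with overlapping groups. Tpl94D, a chromatin protein of the spermatid stage at which histones are replaced, had 7.46 and 7.42 in mutant against 7.35 and 7.37 in control testes (0.078 ± 0.051). CG43675 had 7.33 and 7.27 in mutant against 7.27 in both control libraries (0.035 ± 0.053). The E2 ubiquitin-conjugating enzyme gene Ubc84D averaged 7.03 ± 0.046 in mutant and 7.11 ± 0.040 in control testes (SD, n = 2 each), a difference of -0.075 ± 0.056 (SE). CG7414, listed as the translation factor eIF2A, differed by 0.024 ± 0.050, mge, a receptor subunit of the outer mitochondrial membrane translocase, by -0.0071 ± 0.082 and the RNA helicase gene eIF-4a by 0.043 ± 0.056. Each of these 8 differences was under 0.15 in size, and limma adjusted p was at least 0.311.

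By role, assigned by hand from gene names for 111 of the 198 targets, no group had a gene called by limma. Counts of separated genes in a role are to be read beside 26.2% of all genes separated upward and 24.2% downward, and in groups this small they are descriptions only. The largest was RNA processing and translation with 20 targets, of which 15 had a positive difference (median 0.042, range -0.36 to 0.22), and 8 were separated upward and 2 downward, without a test against that background. Besides Non1, Aats-ser and Zn72D it held Imp, an RNA-binding protein that stabilises messenger RNA in the testis stem cell niche, at 3.15 and 2.97 in mutant and 2.90 and 2.92 in control testes (0.15 ± 0.092). It also held both microRNA pathway genes among the targets. The gene for Pasha, the partner of Drosha in cutting primary microRNA hairpins, had 1.63 and 1.62 in mutant against 1.39 and 1.59 in control testes (pasha, 0.14 ± 0.10). Control replicate 1 lay apart from the other 3 libraries of pasha, and the difference was 0.034 without it. The gene for Loquacious, a partner of Dicer, had 4.99 and 4.95 in mutant against 4.94 and 4.92 in control testes (loqs, 0.041 ± 0.058). Limma adjusted p was 0.445 for Imp, 0.545 for pasha and 0.754 for loqs. The wider microRNA pathway list of 27 symbols, some of them spellings of the same gene, matched 18 genes of the table. Of these, 0 were called by limma and 10 had a positive difference, with a median of 0.038 beside a median of 0.0045 over all genes.

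Transcription and chromatin genes, 18 in number, were evenly divided, with 9 positive and 9 negative differences and a median of 0.0071. They included Mediator subunits, heterochromatin proteins and histone modifiers, the homeodomain factors exd and Lim3, the zinc finger gene seq and the spermatid protein gene Tpl94D. Kdm4A, a histone demethylase, had 3.57 and 3.47 in mutant against 3.20 and 3.44 in control testes (0.20 ± 0.11, limma adjusted p 0.401). There too control replicate 1 lay apart from the other 3 libraries, and the difference was 0.077 without it. Of the 16 signalling genes 9 were positive (median 0.030), among them gish, a casein kinase gene used in spermatogenesis, at 4.12 and 4.03 in mutant and 4.01 and 4.04 in control testes (0.044 ± 0.070). The gene mts, for the catalytic subunit of protein phosphatase 2A, was at 3.15 in both mutant libraries and at 3.17 and 3.15 in control testes (-0.011 ± 0.074).

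Membrane traffic genes (14) had 10 positive differences and a median of 0.058, with 5 separated upward and 3 downward, also without a test against that background. Genes of the ubiquitin system (7) had 3 positive and 4 negative differences and a median of -0.046. The ubiquitin-conjugating enzyme gene eff stood at 5.65 and 5.61 in mutant and at 5.71 and 5.72 in control testes (-0.084 ± 0.054, limma adjusted p 0.470). Mitochondrial genes (12) had 5 positive and 7 negative differences and a median of -0.011. The inner membrane fusion GTPase gene Opa1, at 1.87 and 1.80 in mutant and 1.71 and 1.75 in control testes, differed by 0.10 ± 0.087. The cytochrome c oxidase subunit gene COX6B, at 4.48 and 4.32 in mutant and 4.33 and 4.26 in control testes, differed by 0.11 ± 0.080. The groups overlapped in COX6B and not in Opa1, and neither passed (limma adjusted p 0.526 for COX6B and 0.584 for Opa1).

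Smaller groups had few members each. Of 7 cytoskeleton genes 4 were positive (median 0.040). The actin nucleator gene spir had 2.86 and 2.68 in mutant against 2.67 and 2.71 in control testes (0.072 ± 0.095), and cpb, for the beta subunit of the actin capping protein, had 2.69 and 3.00 in mutant against 2.71 and 2.53 in control testes (0.22 ± 0.13). Both had overlapping groups. Of 7 genes of transport across membranes 5 were positive, with a median of 0.13, the highest of the role groups, and Mct1 and Calx among them. Metabolic and modifying enzymes (10) had 7 positive differences, a median of 0.014 and a range of -0.30 to 0.25. The 87 targets without an assigned role, most of them known by a CG number, had 50 positive differences and a median of 0.011. For comparison, 51.3% of all genes had a positive difference, with a median of 0.0045.

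**Figure D5:**
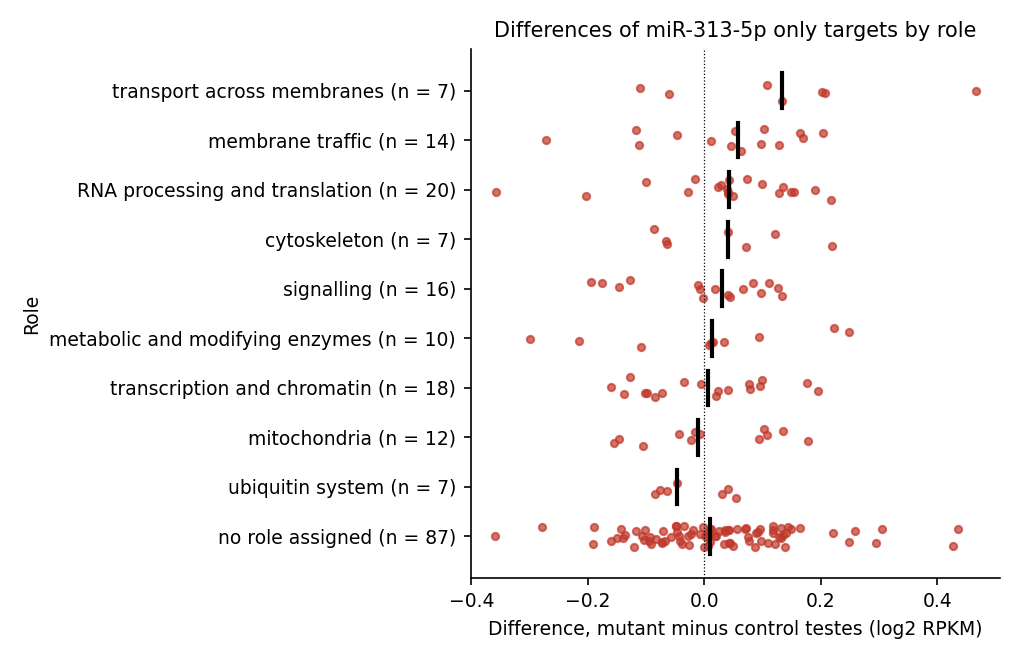
Difference between mutant and control testes (horizontal axis, log2 RPKM) of each of the 198 miR-313-5p only targets, 1 point per gene, in rows by role, with a black bar at the median of each row and vertical scatter added for visibility only. Row medians run from -0.046 for the ubiquitin system to 0.13 for transport across membranes, and each row spreads to both sides of 0.

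Of the 198 targets, 15 had the same 4 values as another gene of the table, as overlapping or dicistronic genes would, so their reads cannot be assigned to one gene. Among these, Pmi and PGRP-LD are both targets with each other's values, and fab1 has the values of CG33981, a target of both arms. Each of the other 12 shared its values with a gene marked for neither arm, such as Tim9b with CG12788, mus312 with CG42307 and kappaB-Ras with CG30503. Leaving out all genes with shared values gave a shift of 0.023 over 183 targets.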

How the data were processed

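The authors deposited log2(RPKM) per gene for 4 testis libraries, with TargetScan marks for each miR-313 arm (source: file headers and series text). Reads were aligned with TopHat, per the submitters' processing notes; not given in the sources used here are the aligner version, the counting tool, strand use and the build. All values lie above 1.00 and sorted columns differ by at most 0.044, the pattern that quantile normalization leaves. The authors also deposited small RNA counts and RPM per mature microRNA, per the file headers; the Canton-S testes reads were trimmed, masked and collapsed first, per the series text. Library totals are sums over the deposited rows, 404183 to 12445851 reads.

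Mutant and control were compared in R 4.3.3 with limma 3.58.1 (moderated variances with an intensity trend; 3.46 prior degrees of freedom; no pseudocount; minimum mean log2(RPKM) of 0, which removed 0 genes) and Benjamini-Hochberg adjustment over all 7539 genes at 0.05; the fit was tested on simulated data. Sets are described by medians and percentages without a test. The members and lists were chosen with earlier results of these data known, and roles after gene names were seen. Genes were named by rule: among separated targets the 12 largest differences in each direction, the 8 highest levels, and up to 2 per gene list over 10 role lists. Of the targets 196 matched the gene name table; symbols are those of the deposited table. No microRNA or target site sequence was used here. Same-numbered libraries did not deviate together (correlation across genes 0.060), so replicate numbers were not used as pairs. Alternatives covered the pseudocount, a level minimum, variance settings, centring, shared profiles, each library left out, a replicate block and, added later, protein-coding genes alone.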

Additional observations from a re-analysis of the deposited data

How the results depend on the processing

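Over 13 alternatives, 0 of the 198 targets were called by limma in any, with the smallest adjusted p of a named target at 0.0674. The median shift stayed at 0.023 in 5 alternatives that leave each difference or the gap between the medians as it was (no filter, replicate block, 2 variance settings, centring). In the 8 others it was positive, from 0.0085 to 0.043 when a library was left out, and 0.0194 with log2(RPKM + 1), 0.0305 with a minimum mean of 3 and 0.0179 with protein-coding genes alone. Leaving out a library gave 50.0% to 65.7% positive targets, 5 to 15 targets at an unadjusted p under 0.05, 36.4% to 55.1% separated upward (fewer libraries overlap less often by construction), a median level of 2.84 to 2.86, and 22 to 99 called genes over the whole table. With 1 library left in a group, that library is assumed to vary like the other group. With a minimum mean of 3, 50 genes were called over all and 9 targets stood at an unadjusted p under 0.05 (fewer genes tested), with a median level of 4.35; without shared profiles that level was 2.79. The replicate block gave 238 called genes over all, 0 of them targets, and 11 targets at an unadjusted p under 0.05. Replicate numbers do not pair the libraries, and the cause of the higher count was not tested. For the alternatives the share of all genes at that unadjusted p is not given, so these counts of targets have no background. Leaving out a library gave 172 values for the 43 named targets, none called by limma, and moved 26 of the targets by over 1.5 times. In 21 of these the sign held, with ranges of CG10082 (-0.26 to -0.13), CG13321 (0.11 to 0.74), CG16964 (-0.31 to -0.065), CG30101 (-0.50 to -0.22), CG43675 (0.0039 to 0.066), CG7414 (0.016 to 0.033), CG7556 (0.097 to 0.40), COX6B (0.03 to 0.19), Calx (0.11 to 0.31), Imp (0.068 to 0.24), Kdm4A (0.077 to 0.32), Non1 (-0.55 to -0.17), Opa1 (0.067 to 0.14), Sod3 (-0.32 to -0.11), Tpc1 (-0.28 to -0.029), Ubc84D (-0.11 to -0.043), alpha4GT1 (-0.42 to -0.18), cpb (0.067 to 0.37), eIF-4a (0.0047 to 0.08), loqs (0.021 to 0.061) and pasha (0.034 to 0.24). In the other 5, over the fits without 1 library CG14995 ranged from -0.040 (without mutant replicate 1; -0.023 without control replicate 1) to 0.126, gish from -0.0046 (without mutant replicate 1) to 0.0921, spir from -0.016 (without mutant replicate 1) to 0.161, mge from -0.113 to 0.098 (without mutant replicate 2; 0.0081 without control replicate 1) and mts from -0.023 to 0.0019 (without control replicate 1), and mge was 0.0020 after centring. With 2 libraries a group and unknown depth, differences of the size of the shift were not detectable in single genes.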
